A study of Mus musculus with 4 samples.

Results

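The effect of Ezh2 loss on RNA levels was examined in erythrocyte/megakaryocyte progenitors of the mouse fetal liver, the precursors that give rise to red cells and to the megakaryocytes that shed platelets. One array of cells labelled Ezh2-null (Ezh2-/-) was set against 1 array of wild-type cells, both from livers of E14.5 embryos on the C57BL/6 background, which makes 2 of the 4 arrays of the series. The other 2 arrays held the same cell type from adult bone marrow, wild type and Ezh2-null, also on C57BL/6, and their values are given only beside those of fetal liver. The labels do not say which part of Ezh2 was deleted, in which cells, how the progenitors were isolated, or how many embryos of which sex went into each sample.

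Ezh2 is the main catalytic subunit of Polycomb repressive complex 2 (PRC2), which methylates lysine 27 of histone H3 and keeps developmental genes silent. Eed and Suz12 hold the complex together, and Ezh1 is the alternative methyltransferase. In the fetal liver, PRC2 is known for restricting lineage choice and for supporting the growth of stem and progenitor cells, while erythroid precursors there switch on adult-type globins, make haem and divide rapidly. A progenitor of this stage therefore depends on ribosomes, mitochondria, histone supply and protein quality control at the same time, and these pathways are described below family by family.

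A gene was compared when Feature Extraction, the scanner software, had marked its signal as well above background on at least 1 of the 2 fetal liver arrays. This left 16246 genes of 31693 gene or transcript names on the array. Signals were scaled to a common 75th percentile, and differences are null minus wild type on the log2 scale. Paired readings of a gene are scaled intensities, the wild-type array first and the null array second. With 1 array per group there was no replicate and no test, and a gene was called when the signals differed at least 2-fold. By this measure 28.7% of the genes were called, 2503 (15.4%) as higher and 2155 (13.3%) as lower on the null array. These are bulk samples, in which fewer cells of a kind and less RNA per cell cannot be told apart. In bone marrow 12.2% of 15269 genes were called, 4.55% as higher and 7.64% as lower. The median over all fetal liver genes was −0.14, and list medians below are given relative to it. The setting moved this median by more than 0.1 in 4 cases. With other scalings it was 0.27 on spike-in RNA and −0.30 on the percentile over all probes. It was −0.35 with normexp background correction and −0.30 for genes well above background on both arrays. Higher genes made up 53.7% of the calls in the main setting, against 84.2%, 41.7% and 42.5% with spike-in scaling, the percentile over all probes and normexp, and 47.9% with the filter on both arrays.

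The label was checked first. Ezh2 had 1 probe (chromosome 6, 47480307 to 47480366 of build mm9, starting 2558 bases into the transcript). It read 33.5 and 194 on the fetal liver wild-type and null arrays, a difference of 5.8-fold towards the null array, and 35.4 and 70.0 on the bone marrow arrays. The signal was higher, not lower, on both arrays labelled null. The labels do not say whether the Ezh2 probe lies in the deleted part, so it cannot check the deletion. The cause of its higher signal was not tested. Genotypes are given as labelled, and every direction rests on the labels. Xist, the long RNA of X inactivation in female cells, read 4.45 and 743 on the fetal liver arrays and 2.8 and 2.45 on the bone marrow arrays by its brighter probe, so it was well above background on the fetal liver null array alone. It was at least 38.5-fold higher there, under 12 of 14 alternative settings. The Y-linked genes Ddx3y and Eif2s3y stayed near background on each of the 4 arrays. A list of sex-linked genes had 6 of 10 measured members higher on the fetal liver null array and 0 lower. Its relative median was 1.31, and it ranged from 0.11 to 1.72 over the alternatives. Whether the 2 fetal liver samples held embryos of the same sex cannot be told apart from genotype here. Erythroid transcription factors were strong on both arrays: Gata1, the master transcription factor of red cell and megakaryocyte development, read 10276 and 6626 in fetal liver, and Klf1, which drives red cell genes, 2642 and 1725. The platelet gene Gp9 was not well above background on either fetal liver array.

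Several features of the measurement moved with the difference. The null array had 46.4% of its probes well above background and the wild-type array 39.0%. Probes far from the 5′ end of their transcript were more often higher on the null array: the call was made for 29.3% of genes in the quintile with the most distant probes and for 7.42% in the quintile with the nearest. Lower calls ran the other way, from 19.8% to 6.62%. Probes poor in G and C were higher in 28.9% of cases and those rich in G and C in 4.56%. In bone marrow the median difference ran from −0.0028 in the nearest quintile to −0.09 in the most distant. The part of these trends in any single result was not tested, and family medians are therefore given with their value after the trends on probe position, probe GC and signal had been removed together, here called the adjusted median. Spots of the same probe on 1 array differed by a median log2 SD of 0.14 on the wild-type and 0.10 on the null array, which covers error within an array only. Where a gene was near background on 1 array, its fold is a bound, written as at least, against the lowest signal called well above background there. A further probe could be read for 536 called genes. It lay on the same side in 74.1% of them and was at least 2-fold apart the same way in 40.9%.

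**Figure D1:**
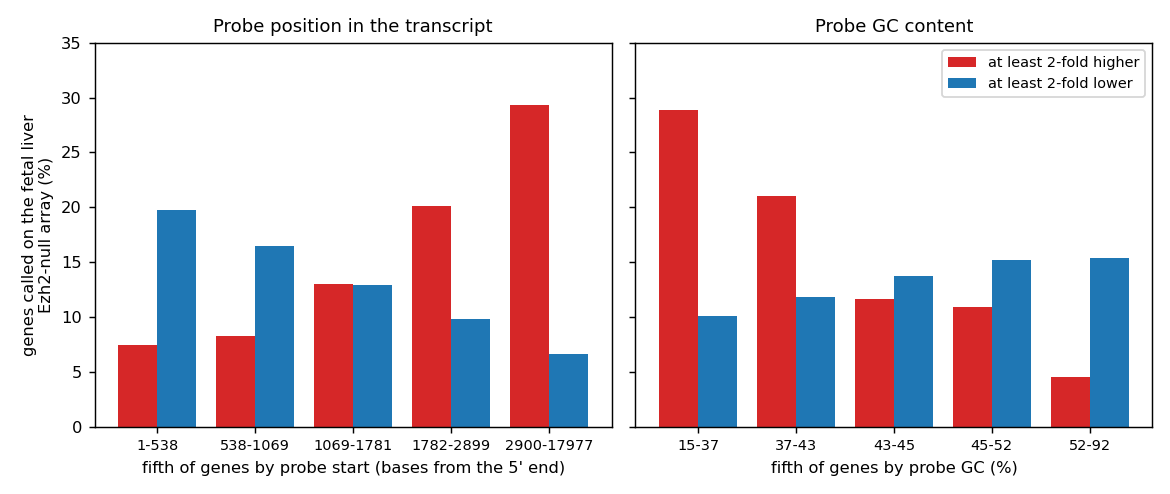
Share of fetal liver genes at least 2-fold higher (red) or lower (blue) on the Ezh2-null array, in quintiles of all genes by the start of the probe in its transcript (left, bases) and by probe GC content (right, %). Higher calls run from 7.42% to 29.3% with probe distance and from 28.9% to 4.56% with GC.

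Of the 86 gene lists, the histone genes had the median farthest from that of all genes. Clustered histone genes, which are transcribed in S phase to package new DNA and whose mRNAs end in a stem-loop rather than a poly(A) tail, were lower on the null array in 33 of 40 measured cases and higher in 0. To show what their regulatory regions look like, promoters of 2 of the lower H2B genes, chosen after their values were seen, are given from 250 bases before to 50 bases after the start, from RefSeq on build GRCm38.p6. Capitals mark the octamer ATTTGCAT, the binding sequence of octamer factors in H2B promoters, and the CCAAT box, each on either strand.
H2bc3 (chr13:23746484-23746783, plus strand): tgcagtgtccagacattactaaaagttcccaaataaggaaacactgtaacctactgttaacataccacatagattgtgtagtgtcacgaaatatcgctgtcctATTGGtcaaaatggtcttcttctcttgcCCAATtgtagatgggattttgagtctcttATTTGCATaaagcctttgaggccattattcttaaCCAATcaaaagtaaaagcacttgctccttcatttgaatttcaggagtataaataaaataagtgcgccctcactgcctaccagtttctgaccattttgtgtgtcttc
H2bc14 (chr13:21721794-21722093, plus strand): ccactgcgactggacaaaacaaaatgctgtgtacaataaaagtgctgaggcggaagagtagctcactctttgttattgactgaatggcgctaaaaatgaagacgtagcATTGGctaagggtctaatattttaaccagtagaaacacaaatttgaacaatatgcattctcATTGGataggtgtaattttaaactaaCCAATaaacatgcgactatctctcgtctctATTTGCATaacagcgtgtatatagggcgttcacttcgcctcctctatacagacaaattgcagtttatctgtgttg
The octamer was present in 12 of 49 promoters of the histone list (24.5%) and in 1.75% of all 27025 promoters of the same length. A CCAAT box was present in 81.6% of the histone promoters against 37.9% of all promoters.

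H2bc3 read 734 and 145 on the wild-type and null arrays (5.08-fold lower) and H2bc14 35858 and 7126 (5.03-fold lower). H4c4, an H4 gene, read 28871 and 4739.6 on the wild-type and null arrays and was 6.09-fold lower. H3c8 read 1158 and 164 and H3c7 837 and 131, 7.07-fold and 6.4-fold lower, and H4c11 read 2246 and 407, 5.53-fold lower. Each of these differences stayed beyond 2-fold under all 14 alternative settings. Over the whole list, lower were 10 of 12 H2A genes, 6 of 7 H2B genes, 7 of 7 H3 genes, 7 of 9 H4 genes and 4 of 8 H1 genes. The clustered genes had a relative median of −2.0 and an adjusted median of −1.3, and their probes started at a median of 339 bases. Histone genes not counted as clustered here, H2aw among them, were lower in 4 of 12 cases, with a relative median of −0.25 and an adjusted one of 0.28. These sub-families were singled out after their values were seen. In bone marrow the clustered genes were lower in 5 of 40 cases and higher in 5, with a relative median of 0.37. Of the 53 histone probes, 15 shared at least 20 bases with the probe of another member, so near-identical copies cannot be fully separated. For the complete list, including variant histones and the stem-loop binding protein, 37 of 53 measured members were lower, 29 of them in each of 12 other settings, and the relative median ranged from −1.85 to −1.08 over the alternatives.

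**Figure D2:**
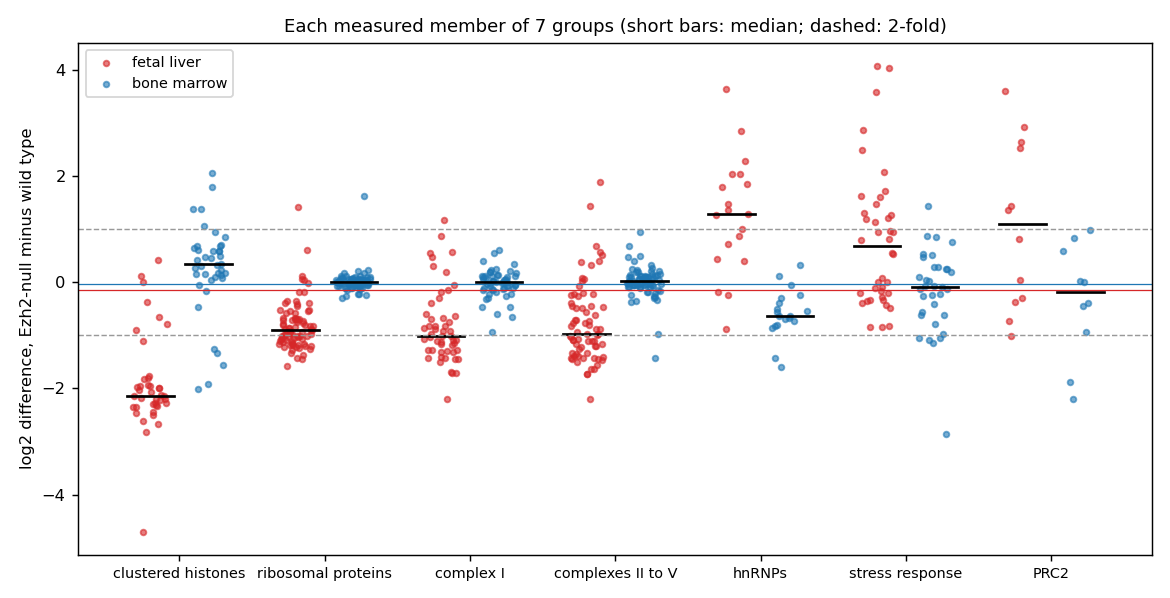
Log2 difference (Ezh2-null minus wild type) of every measured member of 7 gene groups in fetal liver (red) and bone marrow (blue); short black bars are medians, dashed lines 2-fold, coloured lines the median of all genes. Clustered histones sit lowest in fetal liver, with a median 2.0 below that of all genes, and hnRNPs and PRC2 above it.

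Genes of mitochondrial respiration were also mostly on the lower side. Complex I, the NADH dehydrogenase that feeds electrons into the respiratory chain, had 27 of 52 measured subunits and assembly factors lower and 1 higher. The relative median was −0.87. Ndufs8, an iron-sulphur subunit, read 377 and 82 and was 4.59-fold lower, and Ndufa11 read 1139 and 349.8, 3.25-fold lower. Among complexes II to V and cytochrome c, 33 of 71 genes were lower and 2 higher, at a relative median of −0.83. Surf1, which assembles cytochrome oxidase, read 405 and 88.7 and was 4.57-fold lower. The exceptions were Sdha, the flavoprotein of succinate dehydrogenase (135 and 498, 3.69-fold higher), and Cox6a2, a subunit of cytochrome oxidase known from heart and muscle (186 and 505, 2.72-fold higher). Within the chain, 10 of 16 complex IV subunits, 8 of 17 ATP synthase subunits and 3 of 9 complex III subunits were lower. Their probes lay near the 5′ end, at a median start of 548 bases for complex I and 597 for complexes II to V. The adjusted medians were −0.40 and −0.42, and with spike-in scaling 5 and 6 genes were lower. In bone marrow 0 of 54 complex I genes and 1 of 74 genes of the other complexes were lower.

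Ribosomal protein genes shifted together by a small amount. Of 85 measured cytosolic members 33 were lower and 1 higher, at a relative median of −0.77. Rplp1, an acidic protein of the ribosomal stalk, read 7773 and 2607 on the wild-type and null arrays, 2.98-fold lower, and no other member was lower in each of 12 other settings. Rpl22l1, a paralogue of Rpl22, read 109 and 292 and was the single higher member (2.67-fold, under 13 of 14 alternatives). The adjusted median was −0.12, a far smaller shift, and the number of lower members came to 1 with spike-in scaling and to 1 with quantile normalization. Their probes started at a median of 442 bases, and 37 of the 85 shared at least 20 bases with a probe of another name. Mitochondrial ribosomal proteins, which translate the mitochondrial genome, were lower in 24 of 81 cases and higher in 6, with a relative median of −0.58 and an adjusted one of −0.25. Mrpl37 (559 and 69.5, 8.05-fold) and Mrps21 (3466 and 973, 3.56-fold) were lower, while Mrpl42 was 2.57-fold higher. In bone marrow 0 cytosolic and 0 mitochondrial ribosomal protein genes were lower.

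**Figure D3:**
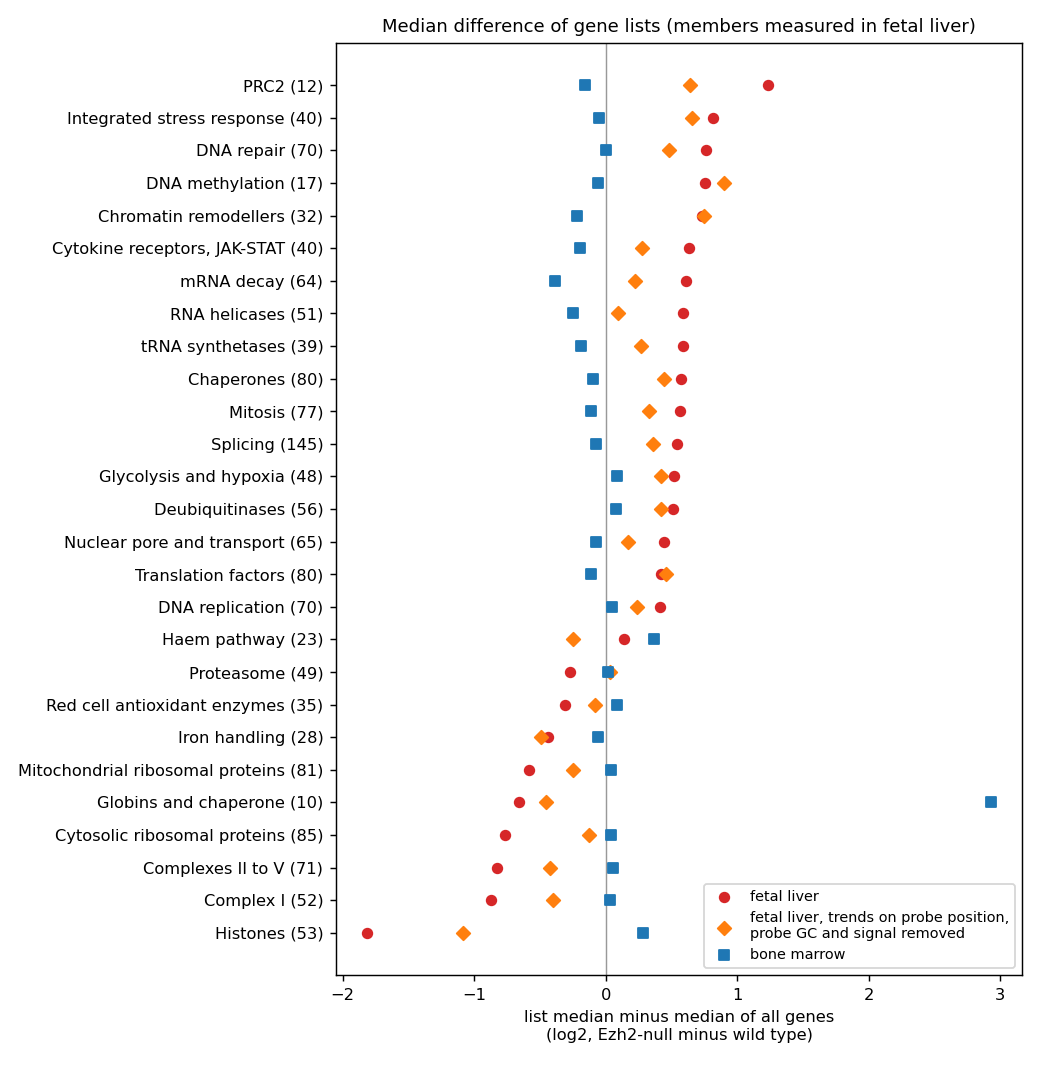
Median difference of 27 gene lists relative to the median of all genes (log2, Ezh2-null minus wild type), in fetal liver (red circles), in fetal liver after the trends on probe position, probe GC and signal had been removed (orange diamonds), and in bone marrow (blue squares); the number of members measured in fetal liver stands in brackets. Histones lie at −1.81 and PRC2 at 1.24; most lists move towards 0 on adjustment.

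PRC2 itself, Ezh2 included, had more members higher than lower. Of 12 measured genes 6 were higher and 1 lower, at a relative median of 1.24 and an adjusted one of 0.64. Of the 6 higher calls 2 were bounds, and 3 held in each of 12 other settings. The relative median ranged from 0.34 to 1.58 over the alternatives. Its lowest value came with the filter on both arrays, where 4 of 9 were higher and 1 lower. Eed, the core subunit that reads methylated lysine 27, read 81.1 and 505 and was 6.23-fold higher under all 14 alternatives. Rbbp7, a histone-binding subunit, read 375 and 969, 2.58-fold higher under 12 of 14. Suz12 was well above background on the null array alone, at 4.89 and 34.1, a bound of at least 1.77-fold that did not reach the call. Ezh1 read 8.04 and 235 by its brightest probe, at least 12.2-fold higher, while its other probe well above background read 58.1 and 66.1. In bone marrow 0 of 10 members were higher and 2 lower. PRC1, the Polycomb complex that ubiquitinates histone H2A, showed no single direction. 3 of its 16 measured members were higher, led by Bmi1 (4.43 and 106.96, at least 5.54-fold, 11 of 14 alternatives), and 2 were lower, Phc2 (101 and 31.7, 3.19-fold) and Ring1 (63.4 and 21.1, 3.01-fold), each under 13 of 14.

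Other chromatin regulators lay mostly on the higher side. Among the ATP-dependent remodellers, which move or evict nucleosomes, 11 of 32 were higher and 3 lower, at a relative median of 0.73 and an adjusted one of 0.74. Of the 11 higher calls 6 were bounds, and 3 held in each of 12 other settings. The relative median ranged from 0.09 to 1.12 over the alternatives. Its lowest value came with the filter on both arrays, where 5 of 21 were higher and 3 lower. Smarca5, the motor of the ISWI complexes, read 92.5 and 627 and was 6.77-fold higher, and Smarcc1, a scaffold of the SWI/SNF complex, read 762 and 1958, 2.57-fold higher. Smarca4, the SWI/SNF motor itself, read 129 and 156 and was under 2-fold. The DNA methylation genes had 7 of 17 members higher and 0 lower. Dnmt1, the maintenance methyltransferase, read 27.8 and 101 (3.64-fold higher), and Mbd2, which binds methylated DNA, read 269 and 1006 (3.74-fold higher). Dnmt3a, the de novo methyltransferase, read 14.1 and 210.5, at least 10.9-fold higher under 13 of 14. This list had a relative median of 0.76 and an adjusted one of 0.90, and in bone marrow 1 of 16 members were higher.

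In the main setting histone-modifying enzymes were also more often higher than lower. Kdm1a, the lysine demethylase that represses haematopoietic programmes together with Gfi1b, read 53.9 and 622 and was 11.5-fold higher. Kmt2a, the trithorax methyltransferase of haematopoietic stem cells, read 504 and 93.2 and was 5.41-fold lower, while Kmt2c read 85.8 and 316, 3.68-fold higher. Among 30 histone methyltransferases 9 were higher and 3 lower, and among 16 demethylases 5 and 2. The acetylation list had 14 of 44 members higher, such as Ing1, a reader of methylated H3 (64.9 and 735, 11.3-fold), and 6 lower, such as the deacetylase Hdac11 (103 and 15.3, 6.74-fold). The relative medians of these 3 lists were 0.45, 0.52 and 0.58, and the adjusted ones 0.32, 0.07 and 0.35. Of the 14 higher acetylation calls 9 were bounds, and 2 held in each of 12 other settings. With the filter on both arrays 5 of 33 acetylation genes were higher and 5 lower. The methyltransferases then had 7 of 25 higher and 2 lower, and the demethylases 3 and 1 of 13. After adjustment 3 of 16 demethylases were higher and 4 lower.

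Genes that PRC2 is known to silence in embryonic tissues were seldom called. Of 39 Hox genes on the array 11 were well above background on a fetal liver array. Hoxa3 read 11.7 and 54.1 (at least 2.8-fold higher, under 12 of 14 alternatives) and Hoxa6 read 75.4 and 27.6 (2.73-fold lower, under 12), and the other 9 were not called. Of 159 other developmental transcription factors 70 were measured, 2 higher and 1 lower, which is a share of 4.29% against 28.7% of all genes. Foxj3 was one of the higher ones, at 68.2 and 402. The targets of PRC2 named as cell cycle brakes were low: Cdkn2a, the Ink4a/Arf locus, read 40.6 and 49.4, and Cdkn1a read 24.3 and 13.2, so neither was called. As a gauge of the floor, 186 of 1077 olfactory receptor genes, which these cells are not known to use, passed the background filter. Of these 8 were called higher and 16 lower.

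Splicing and RNA processing genes were more often higher than lower. Of 145 measured splicing genes 46 were higher and 18 lower, at a relative median of 0.55 and an adjusted one of 0.36. The hnRNPs, which coat nascent RNA and steer splicing and export, were higher in 12 of 19 cases and lower in 0, with an adjusted median of 1.29. Hnrnpu read 91.9 and 1148 and was 12.5-fold higher. Ptbp3, a polypyrimidine tract binding protein of haematopoietic cells, read 30.2 and 380.5 (12.6-fold higher), and the splicing coactivator Rbm39 read 71.1 and 827 (11.6-fold higher). The small ribonucleoprotein and Lsm proteins, by contrast, were higher in 5 and lower in 7 of 30 cases, and their probes started at a median of 524 bases, against 1634 for hnRNPs. These sub-families, too, were picked after seeing their values. In bone marrow 0 hnRNP genes were higher and 2 of 19 lower.

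The RNA helicase list had 17 of 51 members higher and 3 lower. Dhx9, a helicase that resolves double-stranded RNA and R-loops, read 27.4 and 586 and was 21.3-fold higher, and Mtrex, the helicase that feeds the nuclear exosome, read 146 and 901 (6.19-fold). The list's relative median of 0.59 came to 0.09 after adjustment. In the mRNA decay list 23 of 64 members were higher and 9 lower. Of the 23 higher calls 12 were bounds, and 5 held in each of 12 other settings. With the filter on both arrays 11 of 41 members were higher and 8 lower. Cnot6, a deadenylase of the CCR4-NOT complex, read 22.9 and 350.5 (15.3-fold higher), and Drosha, which cuts primary microRNAs, read 497 and 2019.7 (4.07-fold higher). Nuclear pore and transport genes were higher in 20 and lower in 6 of 65 cases. Tnpo1, an import receptor for hnRNPs and ribosomal proteins, read 23.3 and 214 (9.17-fold higher), and Nup98, a mobile pore protein, read 103 and 23.8 (4.32-fold lower). Adjusted medians were 0.22 for decay and 0.17 for the pore. In bone marrow the decay list had 4 of 60 members higher and 16 lower.

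The transcription machinery had members on both sides. Of 120 genes of RNA polymerase II, Mediator and the general factors, 31 were higher and 13 lower. The elongation kinase Cdk12 read 63.8 and 956 (15-fold higher) and the Mediator kinase Cdk8 read 289 and 2877 (9.96-fold higher), while Polr2f, a small subunit shared by the nuclear polymerases, read 347 and 108 (3.22-fold lower). The relative median of this list was 0.19 and the adjusted one 0.08. For ribosome biogenesis 25 of 95 genes were higher and 10 lower, at a relative median of 0.14 and an adjusted one of 0.14. This relative median stood for a median difference of 0. The abundant nucleolar proteins nucleolin (Ncl, 822 and 3988) and nucleophosmin (Npm1, 8284 and 32488) were 4.85-fold and 3.92-fold higher, next to ribosomal protein genes that lay below the median of all genes.

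Stress response genes lay on the higher side. Of 40 measured genes of the integrated stress response, in which phosphorylated eIF2 raises translation of the transcription factor Atf4, 15 were higher and 0 lower. The relative median was 0.82, the adjusted one 0.66, and it ranged from 0.50 to 1.05 over the alternatives. Nupr1, a stress-induced chromatin protein, read 39.9 and 672 (16.9-fold), Ddit4, an inhibitor of mTORC1, read 291 and 4803 (16.5-fold), and Trib3, a pseudokinase that restrains Atf4, read 377 and 4508 (12-fold). Slc7a1, a carrier of arginine and lysine, read 411 and 1735 (4.22-fold). These 4 were higher under all 14 alternatives. Atf4 itself read 17886 and 26296, under 2-fold, Ddit3 (CHOP) read 273 and 239, and Eif2ak1, the haem-regulated eIF2 kinase of erythroid cells, read 108 and 85.8. In bone marrow 1 of 34 members were higher and 5 lower.

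Aminoacyl tRNA synthetases, several of which are Atf4 targets, were higher in 9 and lower in 2 of 39 cases, at a relative median of 0.59 and an adjusted one of 0.27. Tars, the threonyl enzyme, read 128 and 1192 (9.32-fold higher), Lars, the leucyl enzyme, 258 and 2077 (8.04-fold), and Nars, the asparaginyl enzyme, 467 and 1419 (3.04-fold). Cytosolic enzymes were higher in 8 and lower in 0 of 20 cases. Mitochondrial ones were higher in 1 and lower in 2 of 16, the lower ones being Sars2 (724 and 187, 3.86-fold) and Lars2 (99.5 and 29.4, 3.38-fold). To show the element that Atf4 is known to bind, the promoters of 3 higher genes are printed from RefSeq (GRCm38.p6) with TGATGCAA, on either strand, in capitals.
Chac1 (chr2:119350992-119351291, plus strand): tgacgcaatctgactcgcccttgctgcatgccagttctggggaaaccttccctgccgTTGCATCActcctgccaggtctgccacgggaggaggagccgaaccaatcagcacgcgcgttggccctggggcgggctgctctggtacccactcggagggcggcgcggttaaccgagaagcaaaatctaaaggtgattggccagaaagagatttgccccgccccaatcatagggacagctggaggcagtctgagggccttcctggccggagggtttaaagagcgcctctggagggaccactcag
Nupr1 (chr7:126625421-126625720, minus strand): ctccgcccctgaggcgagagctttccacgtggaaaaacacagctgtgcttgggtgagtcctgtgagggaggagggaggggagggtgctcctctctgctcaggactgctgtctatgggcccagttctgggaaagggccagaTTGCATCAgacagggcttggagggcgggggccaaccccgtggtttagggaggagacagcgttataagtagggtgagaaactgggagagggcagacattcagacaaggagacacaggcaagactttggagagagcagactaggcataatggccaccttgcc
Tars (chr15:11399609-11399908, minus strand): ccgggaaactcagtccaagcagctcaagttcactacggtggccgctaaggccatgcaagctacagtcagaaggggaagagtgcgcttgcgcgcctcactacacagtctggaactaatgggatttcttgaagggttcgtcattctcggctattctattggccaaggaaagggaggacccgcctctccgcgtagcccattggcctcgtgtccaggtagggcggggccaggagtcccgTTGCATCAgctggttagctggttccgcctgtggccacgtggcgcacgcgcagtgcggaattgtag
These letters were found in 5 of 35 promoters of the stress response list (14.3%), in 4 of 29 of the synthetases (13.8%) and in 0.929% of all promoters. They were found in 0.91% of the promoters of all higher genes and 0.546% of all lower genes. Chac1, which degrades glutathione and was named after its values were seen, read 13.6 and 59.7 on the fetal liver arrays (at least 3.09-fold higher under 12 of 14).

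Translation factors as a whole had 27 of 80 members higher and 7 lower, at a relative median of 0.42 and an adjusted one of 0.46. Eif4g2, which supports cap-independent initiation, read 41.1 and 472 (11.5-fold higher), Eif3c, a core subunit of eIF3, 1248 and 6373 (5.11-fold), and Eif5, which triggers GTP hydrolysis on eIF2, 163 and 772 (4.74-fold). Elongation factors were higher in 0 and lower in 3 of 14 cases, and the eIF4 group in 7 and 0 of 14. In bone marrow 0 of 78 translation factors were higher and 11 lower.

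Chaperones lay more on the higher side than the proteasome. Of 80 measured chaperones 25 were higher and 7 lower. The relative median was 0.57 and the adjusted one 0.44. Hsp90aa1, the inducible HSP90, read 367 and 1851 (5.04-fold higher), and its cochaperone Ptges3 (p23) read 1892 and 12852 (6.79-fold). Dnajc7, which passes clients between HSP70 and HSP90, read 617 and 4809.6 (7.79-fold). The classical heat-shock gene Hspa1a read 53.7 and 43.3 and the constitutive Hspa8, which strips clathrin and folds nascent chains, 3817 and 3709.9, both under 2-fold. The proteasome list had 6 of 49 subunits higher and 13 lower. Of its sub-families, picked after their values were seen, the catalytic core was lower in 7 and higher in 1 of 18 cases, with a relative median of −0.62 and an adjusted one of −0.26. The regulatory ATPases were higher in 2 and lower in 0 of 6, and the other regulatory subunits in 2 and 2 of 13. Their probes started at medians of 744, 1396 and 1269 bases in that order. Psmd11, a scaffold of the regulatory lid, read 28 and 297 (10.6-fold higher). The proteasome median of −0.28 came to 0.03 after adjustment. Deubiquitinases were higher in 19 and lower in 3 of 56 cases, at 0.51 and 0.42, and ubiquitin ligases and conjugating enzymes in 29 and 16 of 122. Usp25 was one of the higher deubiquitinases, at 132 and 477 (3.63-fold).

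DNA replication genes, active in the same phase as clustered histone genes, were more often higher than lower. They were higher in 23 and lower in 5 of 70 cases, at a relative median of 0.41 and an adjusted one of 0.24. These shares were 32.9% and 7.14%, beside 15.4% and 13.3% of all genes. Mcm4, part of the replicative helicase, read 399.6 and 1922 (4.81-fold higher), and Top2b, a topoisomerase, read 132 and 1167 (8.86-fold higher). Cdc45, which joins the helicase at firing origins, read 118 and 24.2 (4.88-fold lower), the sliding clamp Pcna read 488 and 190.0 (2.57-fold lower) and thymidine kinase (Tk1) read 2008 and 626 (3.2-fold lower). Mcm2, Cdc6 and Cdt1, which license origins, were under 2-fold, at 297 against 254, 828 against 1055 and 1223 against 804. Of the clustered histone genes 33 were lower and 0 higher, and the cause of this contrast was not tested.

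Mitosis genes were higher in 32 and lower in 9 of 77 cases, at a relative median of 0.56 and an adjusted one of 0.33. Smc2, the motor of condensin, read 31.6 and 341 (10.8-fold higher), and Smc3, its counterpart in cohesin, read 209.7 and 887 (4.23-fold higher). All 4 listed SMC genes of cohesin and condensin were higher, and their probes started at a median of 4035 bases. This sub-family, too, was picked after its values were seen. Mki67, the proliferation marker Ki-67, read 125 and 1057 (8.44-fold higher), while the mitotic kinases Aurka, Aurkb and Plk1 read 1385 against 1321, 20.9 against 21 and 1107 against 1138, all under 2-fold. Lower were the small kinetochore proteins Cenps (277 and 60.6, 4.57-fold) and Spc24 (1370.0 and 342, 4.0-fold), while Spc25, the partner of Spc24, read 98 and 449.6 (4.59-fold higher). Among cyclins, CDKs and E2F factors 14 of 56 were higher and 5 lower. Cdk1 read 175 and 220.5 and Cdc25a, the phosphatase that activates CDKs, read 98.5 and 576 (5.85-fold higher). DNA repair genes were higher in 27 and lower in 9 of 70 cases, at 0.76 and 0.48. Slx4, a nuclease scaffold, read 22.8 and 248 (10.9-fold higher), and Ercc1, of the excision nuclease, read 122 and 16.5 (7.39-fold lower). In bone marrow 1 of 67 mitosis genes were higher and 11 lower.

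Red cell genes lay on both sides. Among globins and their chaperone 3 of 10 were higher and 5 lower. Adult-type α-globin genes were lower on the null array, Hba-a1 at 32845 and 6576 (4.99-fold) and Hba-a2 at 33360.1 and 8008 (4.17-fold), as was Ahsp, which stabilises free α-globin, at 8802 and 1760.0 (5.0-fold). The embryonic β-like gene Hbb-bh1 was on the opposite side at 552 and 2091 (3.78-fold higher). On the bone marrow arrays Hba-a1 read 433 and 3856, higher on the null array. The haem pathway had 5 of 23 members higher and 10 lower. Lower were Alas2, the erythroid first enzyme (169 and 57, 2.97-fold), Urod, the fifth (13876 and 3738, 3.71-fold), and the mitochondrial transporter Tmem14c (3521 and 1121, 3.14-fold). Cpox, the sixth enzyme, was 2.89-fold higher (1259 and 3643), and Fech, the last, was under 2-fold (574 and 888). The steps of 1 pathway thus lay on both sides. The list's median difference was 0, a relative median of 0.14, and the relative median came to −0.25 after adjustment.

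Iron handling genes were lower in 8 and higher in 2 of 28 cases, at a relative median of −0.44 and an adjusted one of −0.49. Among the lower ones were genes of iron-sulphur cluster assembly: Iscu, the scaffold (206 and 57.5, 3.58-fold) and Glrx5, the glutaredoxin that hands clusters on (14397 and 4273, 3.37-fold). The transferrin receptor Tfrc read 49.99 and 167 (3.35-fold higher, under 11 of 14 alternatives), and the ferritins Fth1 and Ftl1 read 17488 against 11179 and 18336 against 10684, under 2-fold. Among antioxidant enzymes 4 of 35 were higher and 11 lower. Txnrd1, the thioredoxin reductase, read 356 and 1976 (5.55-fold higher), while Prdx2, an abundant peroxidase of red cells, read 12596 and 3649 (3.45-fold lower). Sod1 and Gpx1 read 49714 against 19705 and 148261 against 55607, both lower, by 2.52-fold under 10 and by 2.67-fold under 12 of 14 alternatives. Red cell membrane genes were higher in 12 and lower in 6 of 33 cases. Epb41 (protein 4.1), a protein of the membrane skeleton, read 620.3 and 3552 (5.73-fold higher), and Slc2a1, the glucose carrier, 416 and 1282 (3.08-fold higher). Icam4, an adhesion protein of erythroblasts, read 2571 and 629 (4.09-fold lower) and Rhd, the Rhesus protein, 2591 and 764 (3.39-fold lower). Band 3 (Slc4a1) and ankyrin (Ank1), which appear late in maturation, read 458 against 248 and 401 against 264, under 2-fold.

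Lineage regulators were called in part. Myb, which keeps progenitors proliferating, read 207 and 840.2 (4.06-fold higher) and Kit, the receptor for stem cell factor, 96 and 363 (3.78-fold higher), both under every alternative. Gata2, which precedes Gata1 in progenitors, read 4.16 and 50.6 (at least 2.62-fold higher, under 11 of 14 alternatives). Gata1, Klf1, Gfi1b and Tal1, the erythroid core, read 10276 against 6626, 2642 against 1725, 1155 against 907 and 292 against 304, all under 2-fold. Over all erythroid and globin-switching factors 5 of 30 were higher and 1 lower, at a relative median of 0.16 and an adjusted one of −0.0017. The erythropoietin receptor Epor read 1655 and 706 (2.34-fold lower, under 13 of 14), and Jak2, the kinase it signals through, was seen on the null array alone (4.18 and 92.6, at least 4.8-fold higher under 12 of 14). The cytokine receptor and JAK-STAT list had 9 of 40 members higher and 5 lower, and its relative median of 0.64 came to 0.28 after adjustment.

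On the megakaryocyte side 6 of 31 measured genes were higher and 2 lower, at a relative median of 0.30 and an adjusted one of 0.21. Itgb3, the β3 chain of the platelet fibrinogen receptor, read 43.7 and 289 (6.61-fold higher). Its partner Itga2b was near background on the wild-type array (13.1 and 34.2) and not called, and the chemokine Pf4 (55.5 and 64.7) and Vwf (56 and 29) were under 2-fold. In bone marrow Pf4 and Vwf read 132 against 421 and 56.6 against 169, each more than 2-fold higher on the null array there. The fetal programme list, with the Lin28 axis and embryonic globins, had 8 of 17 members higher and 1 lower. Of the 8 higher calls 7 were bounds, and 1 held in each of 12 other settings. With the filter on both arrays 6 members were left, 1 higher and 0 lower. Lin28b, the fetal RNA-binding protein, read 17.4 and 89.1, and Hmga2, which it raises by blocking let-7, 13.3 and 124, both called as bounds (at least 4.62-fold and at least 6.41-fold) under 12 and 11 of 14 alternatives.

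Markers of other cells were then read on both arrays. The hepatocyte list had 10 of 38 measured genes lower and 0 higher, with Cpb2, a plasma carboxypeptidase, at 162 and 18.8 (8.66-fold lower) and the apolipoprotein Apoa2 at 419 and 79.5 (5.27-fold lower). Its defining markers Alb, Afp and Ttr stayed near background on each of the 4 arrays. Of 72 hepatocyte genes, 31 were well above background on the wild-type and 33 on the null array, with summed levels of 90162 and 95130.5. On the bone marrow arrays 18 and 21 were well above background, with summed levels of 42755 and 40202, so the sum is not particular to liver samples. Lymphoid genes were higher in 0 and lower in 1 of 14 fetal liver cases, against 13 higher of 23 in bone marrow. The lower one was Vpreb1 (under 13 of 14), the surrogate light chain of pre-B cells, at 91.5 and 2.8 in fetal liver and 10.6 and 2203 in bone marrow. Granulocyte and macrophage genes were higher in 3 and lower in 1 of 18 cases, with Cebpb, a factor of stress haematopoiesis, at 724 and 2396 (3.31-fold higher) and Mpo and Csf1r at 24.4 against 22.8 and 477 against 461. Endothelial and stromal genes were higher in 3 and lower in 1 of 18, with Pecam1 and Cdh5 not well above background, and mast cell genes in 1 and 1 of 11. Lyz2 and Elane, which define myeloid cells, were also near background. The part of such cells in the differences above was not tested.

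Glycolysis genes lay more often on the higher side. Of 48 glycolysis and hypoxia genes 12 were higher and 3 lower, at a relative median of 0.52 and an adjusted one of 0.42. The carrier Slc2a3 read 65.8 and 409.5 (6.22-fold higher), hexokinase 2 (Hk2) 161 and 774 (4.81-fold) and the phosphofructokinase Pfkp 87.7 and 308 (3.51-fold). Gapdh, Ldha and Pklr, the erythroid pyruvate kinase, read 47619.8 against 36642, 58023 against 60904 and 529 against 524, all under 2-fold. In the TCA cycle list 11 of 33 genes were higher and 3 lower, with fumarase (Fh1) at 134 and 462 (3.45-fold higher). The relative median of the cycle was 0.18 and the adjusted one 0.28. Of the 1-carbon and nucleotide genes 14 of 56 were higher and 11 lower, of the cholesterol genes 6 and 4 of 31, and of the fatty acid genes 6 and 6 of 54. Mitochondrial import and dynamics genes were higher in 10 and lower in 16 of 56 cases. There Opa1, which fuses inner membranes, read 63.2 and 375 (5.93-fold higher), and Timm17b, of the inner membrane translocase, 2680.3 and 637 (4.21-fold lower).

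Over the signalling lists the share of members called ran from 24.8% for calcium signalling and ion channels to 41.5% for serine/threonine phosphatases, beside 28.7% of all genes. Nutrient signalling genes were higher in 8 and lower in 6 of 37 cases. The kinase Pdpk1, which activates AKT, read 134 and 865 (6.45-fold higher) and Tsc1, a brake on mTORC1, 46.1 and 239 (5.18-fold higher), while Lamtor4, of the lysosomal platform of mTORC1, read 2213 and 538 (4.11-fold lower). MAP kinase genes were higher in 14 and lower in 5 of 61, and TGF-β and SMAD genes in 6 and 1 of 20. Smad4, the shared SMAD, read 67.2 and 566 (8.41-fold higher). Notch and Wnt genes were higher in 9 and lower in 7 of 61 cases, with Lfng, which glycosylates Notch, at 310.1 and 39.2 (7.9-fold lower). Immediate-early genes were higher in 4 and lower in 2 of 24. Myc, the growth regulator, read 102 and 407 (4.01-fold higher), Fosb read 161 and 1123 (6.97-fold higher), and Fos was not well above background on either fetal liver array. Interferon genes were higher in 3 and lower in 4 of 44 (15.9%), under the 28.7% of all genes. The p53 and BCL2 list had 7 of 39 members higher and 4 lower, and Trp53, Bax and Mcl1 read 271 against 235, 9481 against 5394 and 495 against 588, under 2-fold.

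**Figure D4:**
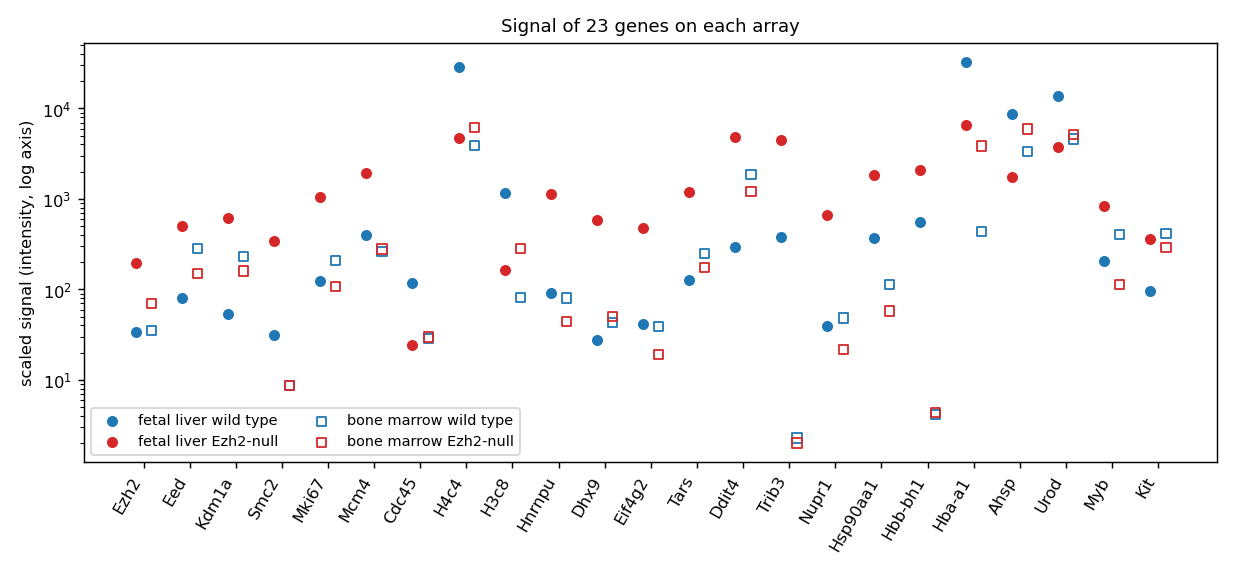
Scaled signal (intensity, log axis) of 23 genes named in the text on each of the 4 arrays: filled circles fetal liver, open squares bone marrow, blue wild type, red Ezh2-null. Signals under about 19.3, the floor of the fetal liver wild-type array, are near background. Ezh2 reads higher on both null arrays, while H4c4, Hba-a1 and Urod read lower on the null array in fetal liver and higher on it in bone marrow.

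Over the lists of the cytoskeleton and membrane traffic the share called ran from 29.6% for glycosyltransferases to 40.8% for RAB GTPases, beside 28.7% of all genes. Genes of the actin list were higher in 25 and lower in 10 of 101 cases, with filamin A (Flna) at 53.4 and 693 (13-fold higher) and moesin (Msn), which links actin to the membrane, at 988 and 6295 (6.37-fold higher). Microtubule genes were higher in 24 and lower in 12 of 105. VPS and sorting genes were split evenly, 12 and 12 of 64, with Vps33b, a tethering protein needed for platelet granules, at 24.8 and 421 (17-fold higher) and Snx15, a sorting nexin, at 422 and 41.4 (10.2-fold lower). Coat and SNARE genes were higher in 27 and lower in 14 of 118, and RAB GTPases in 13 and 7 of 49. Zinc finger genes named Zfp were higher in 51 and lower in 17 of 196 cases (26% and 8.67%). Of the 51 higher calls 31 were bounds, and 4 held in each of 12 other settings. With the filter on both arrays 20 of 122 were higher and 10 lower, and the relative median of 0.28 came to 0.05. In bone marrow 2 of 164 were higher and 25 lower. Imprinted genes were higher in 6 and lower in 1 of 33, with Igf2r, the receptor that clears Igf2, at 138 and 748 (5.41-fold higher) and H19 at 1576 and 1509.5.

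Over all genes, 508 higher and 413 lower calls held in each of 12 other settings. The highest named ones were Morc4 (37.5 and 1033, 27.6-fold), Prrc2c (35.9 and 770.1, 21.4-fold), Dhx9, Clcn3, an endosomal chloride exchanger (63.7 and 1132, 17.8-fold), and Vps33b. The lowest were Gm3448 (752 and 20.5, 36.7-fold), Tex19.1, a germ cell gene that is silenced by DNA methylation in somatic cells (359.5 and 31.1, 11.6-fold), Snx15 and Fignl2 (447 and 44.8, 9.99-fold). By chromosome, leaving out the 5 genes on the Y, the share of higher genes ran from 11.2% on chromosome 7 to 22.5% on the X, beside 15.4% of all genes. The median difference was exactly 0 on the X and on 6 autosomes. Their shared relative median of 0.14 therefore cannot rank the X against them. The adjusted median of the X was −0.01.

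Promoters were compared for the 9415 genes with a RefSeq entry. CpG-rich promoters (an observed over expected CpG ratio of at least 0.6 and at least 50% G and C over the 300 bases) were present in 73% of higher genes, 64.1% of lower genes and 60.2% of all genes compared. The GC box GGGCGG, where SP and KLF factors are known to bind, was found in 66.9%, 58.2% and 57.7% in that order. The GATA sequence AGATAA was found in 5.7%, 8.11% and 7.67%, and the AP-1 sequence TGANTCA in 4.07%, 6.01% and 5.6%. The E2F sequence TTTCCCGC was found in 11 of 57 replication gene promoters (19.3%), in 0 of 49 histone promoters and in 1.11% of all promoters. All motifs were searched on both strands, and a match describes the letters in this window only.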

How the data were processed

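RNA of 4 samples, 1 per source and genotype, was hybridised to 4 one-colour Agilent mouse arrays with 60-base probes. The deposited files held spot intensities from Feature Extraction 10.7.3.1, with background subtracted and detrended within each array, per the file headers. The flags for spots well above background, outliers and control spots, and probe positions on mm9, were also taken as deposited. Control and outlier spots were left out, spots of a probe averaged, log2 intensities scaled to the 75th percentile of 12874 probes that passed the background flag on each of the 4 arrays, and the brightest probe taken for a gene. Names came from RefSeq by accession for 26156 probes, by symbol for 3122 and by an older name for 909, while 9231 kept the deposited name. A dim signal gave a bound.

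The gene lists and members were chosen with earlier results of these data known. Named genes were Ezh2, preset markers and, per list, up to 4 called members in each direction whose call held in all 12 other settings (exceptions are given with the number of settings held), plus the 6 highest and 6 lowest of all genes, of which those with informative names are given. Some genes that this rule would name are not reported here. The settings were normexp background (limma 3.58.1, R 4.3.3, offset 50), 4 other scalings, a filter on both arrays, dim signals at their own value, 2 other choices of probe, removal of the trend on position or on signal, and the deposited table of intensities. Removal of the trend on probe GC, and of all 3 trends together in 40 bins, was chosen after seeing the data. Python 3.11.15, numpy 2.4.6 and pandas 2.3.3 were used, and the calculation was checked on simulated data. With 1 array per group no spread between samples could be estimated.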

Additional observations from a re-analysis of the deposited data

Results flagged for a closer look

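Some genes named above were at least 2-fold apart in opposite directions in fetal liver and bone marrow. They were drawn from the named genes only, and no share over all genes is given. In the quintile with the most distant probes the median difference was 0.26 in fetal liver and −0.09 in bone marrow. In the quintile of probes poorest in G and C it was 0.20 and −0.11. The part of these trends in the opposite directions was not tested. Values are log2 differences, null minus wild type, fetal liver first, and the difference between the sources was not tested, since each source had 1 array per genotype. Those of Gata2 and Vpreb1 in fetal liver, and of Cdk12, Prrc2c, Tnpo1 and Vpreb1 in bone marrow, are bounds. Lower on the null array in fetal liver and higher on it in bone marrow were the red cell genes Hba-a1 at −2.32 and 3.15, Hba-a2 at −2.06 and 2.72 and Alas2 at −1.57 and 1.28. The same held for H3c8 at −2.82 and 1.79, Lfng at −2.98 and 1.81 and Vpreb1 at −2.82 and 7.63. The list of globins and their chaperone had a median relative to all genes of −0.66 in fetal liver and 2.93 in bone marrow. Higher in fetal liver and lower in bone marrow was the transferrin receptor gene Tfrc at 1.74 and −1.10. So were the progenitor genes Myb at 2.02 and −1.86 and Gata2 at 1.39 and −1.14. Among genes of RNA handling and transcription they were Cdk12 at 3.91 and −1.93, Drosha at 2.02 and −1.38, Mtrex at 2.63 and −2.64, Prrc2c at 4.42 and −2.89, Ptbp3 at 3.65 and −2.40 and Tnpo1 at 3.20 and −1.13. Among translation factors they were Eif3c at 2.35 and −1.09, Eif4g2 at 3.52 and −1.02 and Eif5 at 2.25 and −1.57. The others were Dnajc7 at 2.96 and −1.03, Fosb at 2.80 and −2.74, Nupr1 at 4.08 and −1.14, Opa1 at 2.57 and −1.57, Smc3 at 2.08 and −1.53 and Top2b at 3.15 and −1.45.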

How the results depend on the processing

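The number of higher genes, 2503 in the main setting, came to 785 with normexp background correction, 3982 with spike-in scaling, 1570 when both arrays had to be well above background and 1365 at 3-fold. The number of lower genes, 2155, came to 1064 with normexp, 748 with spike-in scaling, 4660 at 1.5-fold and 627 at 3-fold. Both counts stayed within 1.5 times in every other setting tried. The causes of these shifts were not tested, apart from the fold limits and the stricter filter, which change the counts by construction. Of the list medians printed, those of the proteasome, the haem pathway and the erythroid factors changed sign. The proteasome came to 0.0288 with normexp, 0.00898 with the trend on signal removed and 0.0295 with all 3 trends removed. The haem pathway kept its sign in 7 of 14 settings and came to −0.50 when the most 3′ probe stood for each gene, and the erythroid factors came to −0.10 with the trend on position removed and −0.0017 with all 3 removed. Spike-in scaling rested on 10 probes, of which 3 were well above background on all arrays. No paired analysis was possible because each group had 1 array and no replicate numbers. No leave-one-out value exists for the same reason. A signal near background gives only a bound, and 1 array per group limits every difference to a comparison of 2 samples.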
